A study of Mus musculus with 12 samples.

Results

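A set of 10 genes of hepatocyte cell junctions were followed in the livers of mice given Rspo2 by a viral vector. They were the 2 classical cadherins Cdh1 and Cdh2, the 5 claudins Cldn1, Cldn2, Cldn3, Cldn12 and Cldn14, the tight junction genes Tjp1 and Ocln, and the gap junction gene Gjb1. They were chosen by symbol, 10 of 54532 genes in the deposited table, and each symbol matched 1 row. All 10 had a mean of at least 0.5 FPKM (read fragments per kilobase of gene, scaled to library size by the authors) and were tested among 13447 genes. Every library came from liver of mice with the genotype Apoe knockout, so the controls lacked functional apolipoprotein E as well. The control group (6 libraries, numbers 1 to 6) received an adeno-associated virus (AAV) coding for Gfp, and the Rspo2-AAV group (6 libraries, numbers 1, 2, 4, 5, 6 and 7) received one coding for Rspo2. The promoter in the vector, its dose, the time after injection, and the strain and age of the mice were not given in the sources used here. The title of the series asks about fat storage and AMPK signalling in the liver, and the junction genes are described here without reference to that question.

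Hepatocytes are polarised cells that form bile canaliculi between neighbours, and tight junctions seal these canaliculi from the blood side. Claudins are membrane-spanning proteins that form the strands of tight junctions, occludin lies in the same strands, and the scaffold ZO-1 (Tjp1) ties them to actin. Classical cadherins hold neighbouring cells together at adherens junctions and bind beta-catenin on their inner side, the same protein that carries Wnt signals to the nucleus. Hepatocytes carry both E-cadherin (Cdh1), which is concentrated around the portal vein, and N-cadherin (Cdh2), while claudin 2 is known for its place nearer the central vein. Rspo2 encodes R-spondin 2, which cells secrete and which makes neighbouring cells more responsive to Wnt ligands.

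The libraries held 14295644 to 22195576 recovered reads each, and several stood apart. Their FPKM summed to between 355547 (Rspo2-AAV 1) and 621337 (Rspo2-AAV 2), so FPKM levels compared between single libraries depend on the scaling. Rspo2 was at 0 FPKM in every control and at 49.9 to 573 FPKM in the Rspo2-AAV libraries, with the lowest values in numbers 2 (49.9) and 1 (122). Xist, the RNA of the inactive X chromosome, reached 42.0, 28.0 and 5.57 FPKM in control 3 and in Rspo2-AAV 1 and 2, and 0.0186 FPKM at most in any other library. The mitochondrial share of reads was 10.5% for Rspo2-AAV 2, outside the 3.53% to 5.89% of all other libraries. Reads of 12 pancreatic acinar markers were 6.29% of the total for Rspo2-AAV 4, 0.562% for number 5 and at most 0.0645% for any other library. In either group Scd1 was low for numbers 1 to 3 (331 to 541 FPKM) and high for numbers 4 to 7 (2457 to 3662 FPKM), and values within these sets are given for Cdh1, Cldn2, Cldn14 and Ocln. Within numbers 1 to 3, Xist was high in both Rspo2-AAV libraries but only in control 3 among the controls. Group and Xist thus partly go together in that set. Hepatocyte reference genes marked the tissue as labelled: Alb was at 20512 ± 7578 FPKM in control and 12860 ± 2515 FPKM in Rspo2-AAV libraries (mean ± SD, 6 libraries each, log2 change -0.62, limma adjusted p = 0.184), and 0 of 9 tested reference genes were called higher or lower. Nothing in the labels ties each library to its own mouse, and the p-values therefore refer only to the spread among these libraries, which may be technical.

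Of the 10 junction genes, Cdh1 fell and the other 9 did not pass the test over all 12 libraries. A gene was called at an adjusted p under 0.05 by limma across all 13447 genes, where 5.20% of genes were called, 2.55% as higher and 2.65% as lower. The 1 lower and 0 higher calls among 10 genes are thus a count too small to set the group apart from other genes. The median log2 change of the 10 was -0.08, against 0.00 over all genes tested, and 2 of the 10 changes were positive. Before adjustment, the limma p was 7.3e-07 for Cdh1, 0.0034 for Cldn2 and at least 0.099 for each other junction gene. Changes are differences in mean log2(FPKM + 0.5), Rspo2-AAV minus control, which understates the change of genes at low levels.

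**Figure D1:**
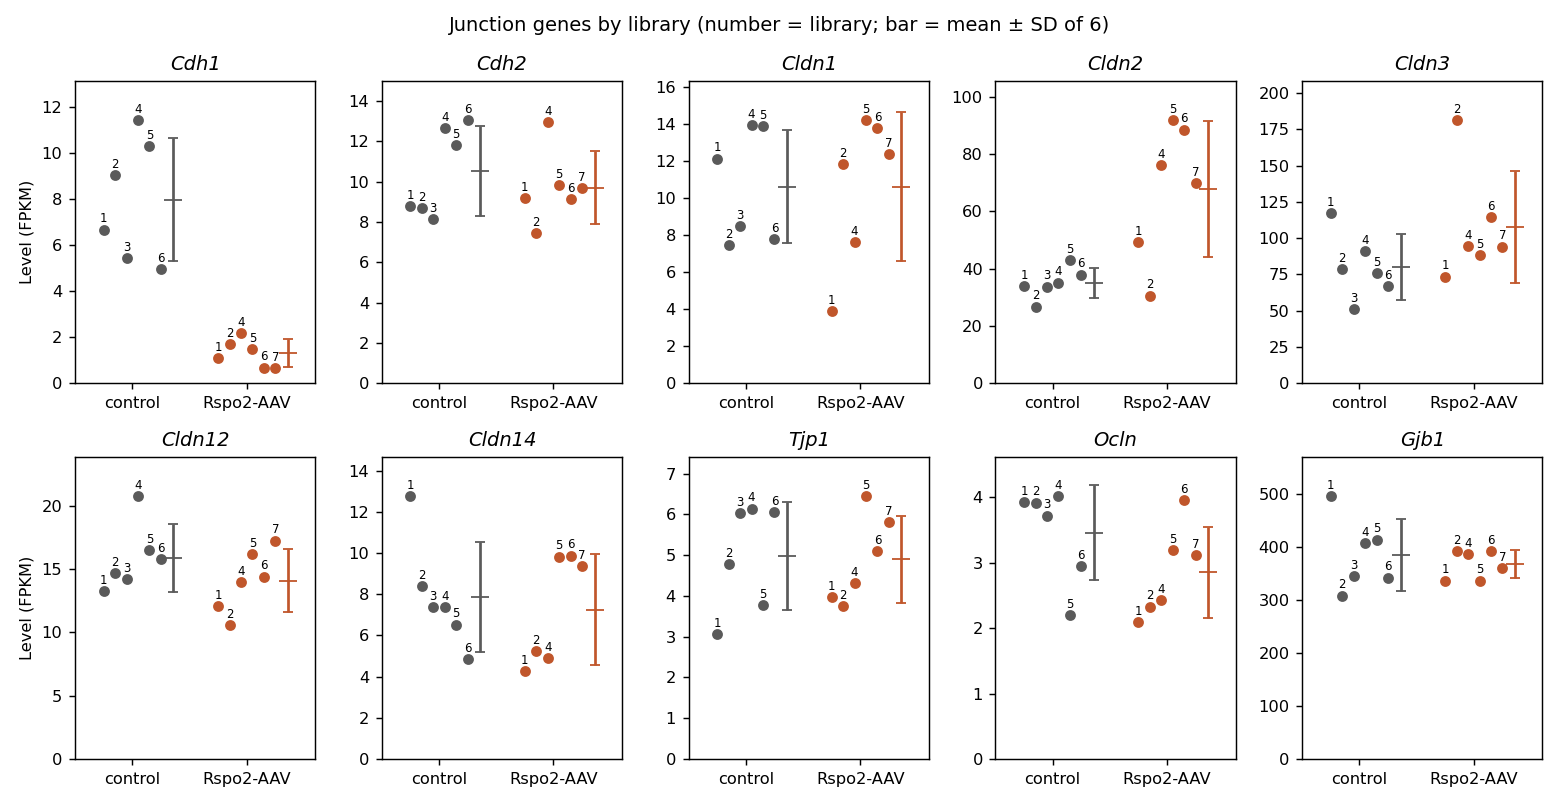
Level of each junction gene (FPKM, linear axes from 0) in the 6 control and 6 Rspo2-AAV libraries, with the library number at each point and the mean ± SD beside each group. All 6 Rspo2-AAV values of Cdh1 (0.644 to 2.19 FPKM) lie below all 6 control values (4.96 to 11.4 FPKM), 5 of 6 Rspo2-AAV values of Cldn2 lie above all controls, and the groups of the other 8 genes overlap.

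**Figure D2:**
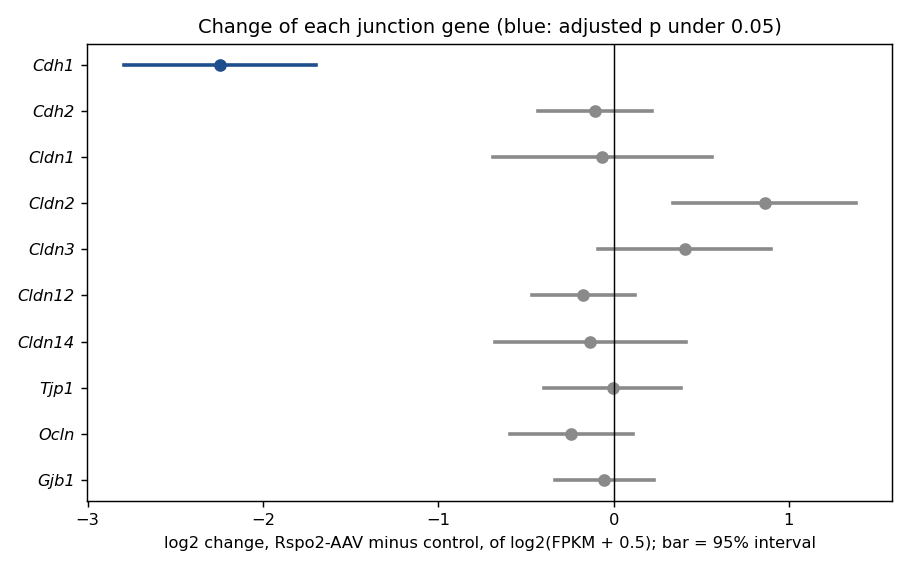
Change of each junction gene (log2, Rspo2-AAV minus control) with its 95% interval from limma, n = 6 libraries per group. Cdh1, at -2.25, is the only gene called (blue), the interval of Cldn2 lies above 0 without passing the adjusted threshold, and those of the other 8 include 0.

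Cdh1 encodes E-cadherin, the epithelial cadherin of adherens junctions (ENSMUSG00000000303, GRCm38 chromosome 8, 106603351 to 106670246, plus strand, protein coding). Its level in the control libraries was 4.96 FPKM at the lowest (number 6), 7.86 at the median and 11.4 at the highest (number 4). In the Rspo2-AAV libraries it was 0.644 at the lowest (number 7), 1.29 at the median and 2.19 at the highest (number 4). The groups did not overlap, a pattern that 1.62% of all genes tested showed in the lower direction. The mean fell from 7.98 ± 2.67 to 1.30 ± 0.607 FPKM (mean ± SD, 6 libraries each), a ratio of 6.15, with a log2 change of -2.25 ± 0.25 (SE, limma adjusted p = 0.00107). These levels rest on 44 to 1010 reads per library. In bulk liver, fewer cells that express the gene and less RNA per cell cannot be told apart.

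The fall of Cdh1 was called in 24 of 25 other choices of libraries or processing, with log2 changes from -2.68 to -1.95 over all 25. Leaving out any 1 of the 12 libraries gave -2.38 to -2.13. Within numbers 4 to 7 it was -2.44 (adjusted p = 0.00902), in a fit that called 6.92% of all genes lower. The exception was numbers 1 to 3 alone, with 3 controls and 2 Rspo2-AAV libraries. There the change was -1.98 (limma unadjusted p = 0.000685, adjusted p = 0.159), and limma called 0 of 13447 genes (0%). Acinar cells of the pancreas also carry E-cadherin, and Rspo2-AAV 4, with the most acinar reads, had the highest Cdh1 of its group. Without Rspo2-AAV 4 and 5 the log2 change was -2.46 (adjusted p = 0.00412), with 0.892% of all genes called lower.

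Bile duct cells (cholangiocytes) carry E-cadherin too. Their 12 markers summed to 27.2 to 42.4 FPKM in the control and 35.1 to 62.8 FPKM in the Rspo2-AAV libraries, and none of the 12 was at 0 in every library. Of the 8 that were tested, 0 were called higher and 0 lower, and the median log2 change was 0.30. Spp1 was at 22.4 ± 4.56 and 29.7 ± 8.96 FPKM (mean ± SD, 6 libraries each) and was not called. The duct keratin Krt19, named with its values known, stood at 0.148 to 1.18 FPKM in control and 0.470 to 1.90 FPKM in Rspo2-AAV libraries, highest in Rspo2-AAV 4. The sum over the 12 markers averaged 36.7 ± 5.35 FPKM in the control and 45.5 ± 11.2 FPKM in the Rspo2-AAV libraries, most of it Spp1. The part of bile duct cells in the Cdh1 values was not tested.

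Cdh2 encodes N-cadherin, the second classical cadherin of hepatocytes (ENSMUSG00000024304, GRCm38 chromosome 18, 16588877 to 16809246, minus strand). It was at 8.16, 10.3 and 13.0 FPKM at the lowest, median and highest of the controls, and at 7.44, 9.44 and 12.9 FPKM in the Rspo2-AAV libraries. The groups lay over each other, and the log2 change was -0.11 (95% interval -0.43 to 0.22, limma adjusted p = 0.742), an interval that spans 0.741 to 1.17 times the control level. Because FPKM is scaled by gene length, the cadherins can be set against each other within a library. The ratio of Cdh1 to Cdh2 was 0.380 to 1.04 in the controls (mean 0.770 ± 0.230, SD, n = 6) and 0.0664 to 0.228 in the Rspo2-AAV libraries (0.135 ± 0.0610, SD, n = 6). Cdh1 was thus near the level of Cdh2 in several controls and well under it in each Rspo2-AAV library.

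Among 13 tested genes of the adherens junction plaque and the nectins, 1 was higher and 1 lower, with a median log2 change of -0.02. The lower one was Ctnnbip1 (ICAT), a small inhibitor that keeps beta-catenin from TCF transcription factors. It fell from 2.79 ± 0.789 to 0.702 ± 0.293 FPKM (mean ± SD, 6 libraries each, log2 change -1.46 ± 0.19, limma adjusted p = 0.00173), and its groups did not overlap (2.03 to 4.26 against 0.295 to 1.00 FPKM). The call was lost among numbers 1 to 3 alone and in no other of 25 alternatives. The higher one was Nectin1, an immunoglobulin-like adhesion protein of adherens junctions, which rose from 10.9 ± 2.90 to 21.2 ± 6.10 FPKM (log2 change 0.91 ± 0.21, adjusted p = 0.0261). Its call was lost without any 1 of control 2 and Rspo2-AAV 5, 6 and 7 (with log2 changes of 0.84, 0.83, 0.82 and 0.87). With the losses under TPM scaling, no filter on low values, either set of numbers alone and without Rspo2-AAV 4 and 5, the call of Nectin1 was lost in 9 of 25 alternatives. The catenins that bind cadherins directly were chosen for naming after their values were seen. Alpha-catenin Ctnna1 was at 34.8 ± 1.44 and 34.4 ± 2.58 FPKM, p120-catenin Ctnnd1 at 3.56 ± 0.378 and 3.55 ± 1.02 FPKM, and plakoglobin Jup at 9.69 ± 1.23 and 10.2 ± 0.755 FPKM. Beta-catenin, Ctnnb1, was at 36.2 to 41.5 FPKM in the controls and at 33.8 to 41.1 FPKM in 5 Rspo2-AAV libraries, with 15.5 FPKM in Rspo2-AAV 2 (adjusted p = 0.461 over all 12).

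Of 19 other cadherins and related genes, 6 reached the level for testing, and 0 were called higher or lower. The most abundant were the cadherin-related Cdhr5, at 32.2 ± 3.12 and 40.1 ± 6.67 FPKM, and the protocadherin Pcdh1, at 14.2 ± 1.40 and 13.3 ± 2.21 FPKM (mean ± SD, 6 libraries each, limma adjusted p = 0.193 and 0.665). Transcription factors that act on epithelial cadherin genes, among them the repressors of the Snail and Zeb families, were called neither higher nor lower in 7 tested genes of 12, with a median log2 change of -0.05. Tcf3 was at 7.19 ± 1.12 and 9.07 ± 2.10 FPKM, and the splicing regulator Esrp2, placed in this list, at 24.9 ± 2.12 and 31.1 ± 4.44 FPKM (adjusted p = 0.241 and 0.119). The Snail gene Snai1, named with its values known, stood at 0.696 to 1.08 FPKM in the controls and 0.446 to 1.39 FPKM in the Rspo2-AAV libraries.

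Cldn2 encodes claudin 2, which forms channels for cations and water in tight junctions (ENSMUSG00000047230, GRCm38 chromosome X, 139800828 to 139811386, plus strand). The 250 bases before its RefSeq start site are shown because it had the largest positive change of the 10 genes, beside those before the first RefSeq start of Gjb1, the 1 window among these genes with the core CTTTGA of the TCF/LEF motif. Both windows are from GRCm38.p6, on the plus strand, chrX:139800558-139800807 for Cldn2 and chrX:101376126-101376375 for Gjb1. Capitals mark CTTTGA, the shorter CTTTG it contains, on either strand (as TCAAAG and CAAAG on the reverse), and the TATA sequence TATAAA on the strand shown.
Cldn2: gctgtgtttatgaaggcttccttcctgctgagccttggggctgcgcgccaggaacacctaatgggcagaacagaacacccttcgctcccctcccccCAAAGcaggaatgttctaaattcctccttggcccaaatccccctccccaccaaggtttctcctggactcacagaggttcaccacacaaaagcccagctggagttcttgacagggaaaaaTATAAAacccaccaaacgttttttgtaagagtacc
Gjb1: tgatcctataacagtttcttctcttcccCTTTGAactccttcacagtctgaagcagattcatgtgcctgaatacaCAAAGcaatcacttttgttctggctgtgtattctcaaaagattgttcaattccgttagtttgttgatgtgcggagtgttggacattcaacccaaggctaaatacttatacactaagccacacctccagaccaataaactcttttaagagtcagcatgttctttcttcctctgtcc
RefSeq promoters matched 8 of the 10 genes, with 16 start sites, and Cdh1 and Cdh2 had no entry. CTTTGA was in 1 of these 16 windows, that of Gjb1, 222 bases before the start, against 13.8% of all 32851 windows of this length on either strand. The Cldn2 window held CTTTG on the reverse strand 154 bases before the start, as 48.6% of all windows hold it on either strand, and TATAAA 35 bases before the start, as 7.59% hold it on the same strand. A match describes the letters and no binding was measured.

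Claudin 2 transcript was at higher levels in 5 of 6 Rspo2-AAV libraries. Cldn2 was at 26.7, 34.4 and 42.9 FPKM at the lowest, median and highest of the controls. In the Rspo2-AAV libraries it was at 30.5, 72.9 and 91.7 FPKM. Of these, 5 lay above every control, from 49.3 FPKM in number 1 to 91.7 in number 5, while number 2, at 30.5 FPKM, lay within the control range of FPKM. The summed FPKM of number 2 (621337) was above that of every control (389778 to 559490), so its place against the controls depends on the scaling. The means were 35.0 ± 5.35 and 67.6 ± 23.7 FPKM (mean ± SD, 6 libraries each), a ratio of 1.93, and the log2 change was 0.86 ± 0.24 (SE, 95% interval 0.34 to 1.38, limma adjusted p = 0.0571). Cldn2 thus missed the threshold over all 12 libraries.

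The call of Cldn2 turned on which libraries and which processing were used. Without Rspo2-AAV 2 the log2 change was 1.07 and it was called (adjusted p = 0.00352), in a fit that called 3.07% of all genes higher. It was also called within numbers 4 to 7 (1.06, adjusted p = 0.00301, with 6.34% of genes called higher) and without the 3 libraries with Xist at 1 FPKM or more (1.2, adjusted p = 0.000835, 6.00%). These fits share libraries and are not independent. With limma-voom on recovered reads it was 0.87 (adjusted p = 0.0471, 2.43%), and with a term for numbers 1 to 3 against 4 to 7 it was 0.75 (adjusted p = 0.0250, 3.09%). Among numbers 1 to 3 alone it was 0.31 (adjusted p = 0.842), and without Rspo2-AAV 4 and 5 it was 0.66 (adjusted p = 0.224). Nor was Cldn2 called with TPM scaling (adjusted p = 0.147), the replicate block (0.0765) or no filter on low values (0.118). Leaving out any 1 library other than Rspo2-AAV 2 gave no call (adjusted p = 0.0517 to 0.132). Whether the change differed between the sets of numbers was not tested.

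Rspo2-AAV 2, the library with the lowest Cldn2 of its group, also had the lowest Rspo2 (49.9 FPKM) and the largest share of mitochondrial reads. The next lowest Cldn2, 49.3 FPKM in number 1, came with the next lowest Rspo2, 122 FPKM. In numbers 4 to 7, Rspo2 was at 265 to 573 FPKM and Cldn2 at 69.7 to 91.7 FPKM. Cdh1 did not follow that order: it was at 1.10 and 1.69 FPKM in numbers 1 and 2, between the 0.644 of number 7 and the 2.19 of number 4. Numbers 1 and 2 were also the only Rspo2-AAV libraries with Xist at 1 FPKM or more (28.0 and 5.57 FPKM). Low Rspo2, Xist and library number therefore cannot be told apart in this group. The part of vector level, Xist, read quality or library number in the Cldn2 values was not tested.

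**Figure D3:**
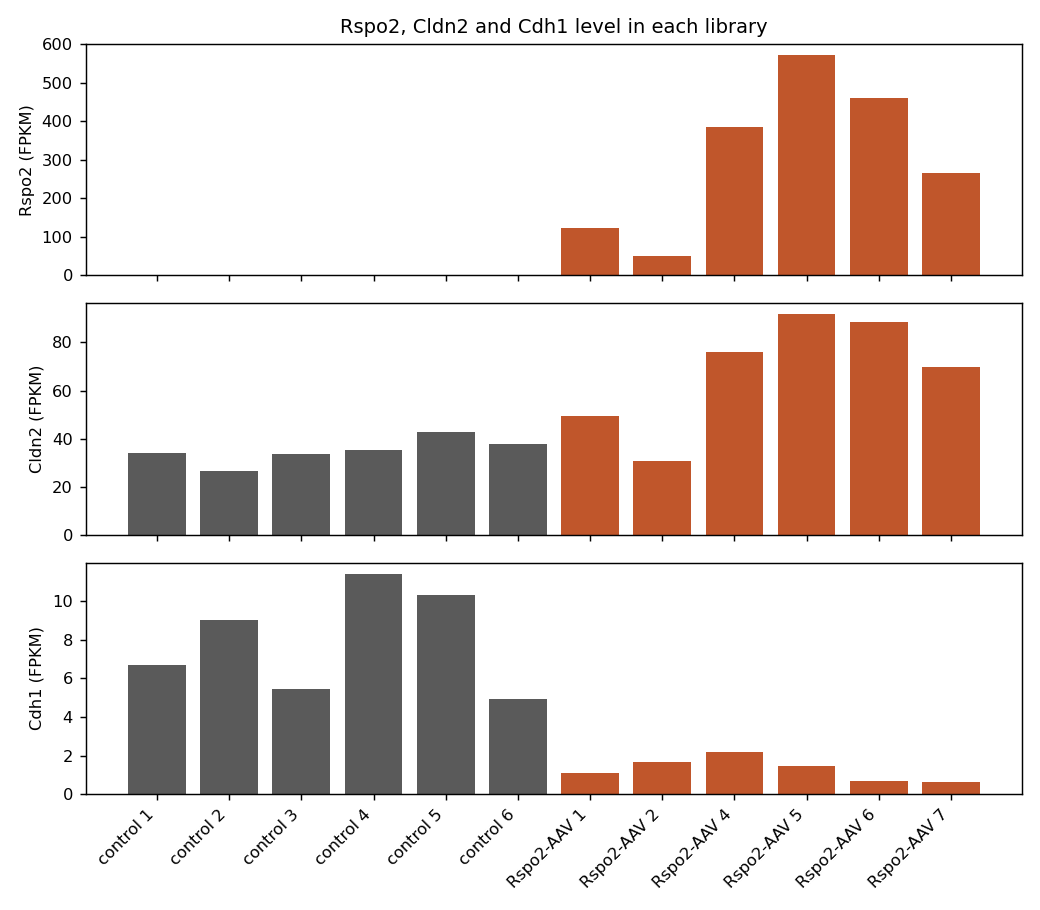
Level (FPKM, linear axes from 0) of Rspo2, Cldn2 and Cdh1 in each of the 12 libraries, controls in grey and Rspo2-AAV in orange. Rspo2-AAV 2 has the lowest Rspo2 of its group (49.9 FPKM) and a Cldn2 level within the control range (30.5 FPKM), while its Cdh1 (1.69 FPKM) lies below every control.

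Cldn3 encodes claudin 3, a sealing claudin with the highest mean FPKM of the 5 in both groups (ENSMUSG00000070473, GRCm38 chromosome 5, 134986214 to 134987472, plus strand). It was at 50.9, 77.4 and 117 FPKM at the lowest, median and highest of the controls and at 73.4, 94.2 and 181 FPKM in the Rspo2-AAV libraries. The highest value was that of Rspo2-AAV 2, where Cldn2 was lowest. Cldn3 was above Cldn2 in 11 of 12 libraries, and in Rspo2-AAV 5 Cldn2 was above it (91.7 against 88.3 FPKM). The log2 change was 0.41 (95% interval -0.09 to 0.90, limma adjusted p = 0.332), and without Rspo2-AAV 2 it was 0.24.

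Cldn1, Cldn12 and Cldn14 showed no call in any of the 26 fits. Cldn1, which encodes a sealing claudin (GRCm38 chromosome 16, 26356642 to 26371841), was at 7.46, 10.3 and 13.9 FPKM at the lowest, median and highest of the controls and at 3.89, 12.1 and 14.2 FPKM in the Rspo2-AAV libraries. Its lowest value was that of Rspo2-AAV 1, and its log2 change of -0.06 (95% interval -0.69 to 0.56) became 0.18 without that library. Cldn12 (chromosome 5, 5489537 to 5514958) was at 13.3, 15.2 and 20.7 FPKM in the controls and at 10.6, 14.2 and 17.2 FPKM in the Rspo2-AAV libraries (log2 change -0.17, 95% interval -0.47 to 0.12). Claudin 12 is unusual in the family for lacking the tail that binds ZO-1. Cldn14, a claudin known from the inner ear, kidney and liver (chromosome 16, 93919031 to 94008837), was at 4.83, 7.36 and 12.8 FPKM in the controls and at 4.28, 7.30 and 9.87 FPKM in the Rspo2-AAV libraries (log2 change -0.13, 95% interval -0.68 to 0.41). Its Rspo2-AAV values lay in a lower run of 4.28 to 5.23 FPKM in numbers 1, 2 and 4 and a higher run of 9.36 to 9.87 FPKM in numbers 5, 6 and 7. Among numbers 1 to 3 alone the log2 change of Cldn14 was -0.90 (95% interval -1.61 to -0.18, limma unadjusted p = 0.0227, adjusted p = 0.615), and among numbers 4 to 7 it was 0.39 (95% interval -0.21 to 0.99, adjusted p = 0.344). Whether these differ was not tested, and group and Xist partly go together in numbers 1 to 3. The intervals span 0.620 to 1.48 times the control level for Cldn1 and 0.625 to 1.33 times for Cldn14, so these data do not show that either stayed the same.

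As shares of the summed FPKM of the 5 claudins, Cldn3 and Cldn2 together made up most of the transcript in every library. The sum was 150 ± 27.0 FPKM in the controls and 207 ± 36.4 FPKM in the Rspo2-AAV libraries (mean ± SD, 6 libraries each), with overlap (115 to 189 against 143 to 241 FPKM). Cldn2 made up 17.9% to 29.4% in the controls and 34.4% to 41.6% in 5 of the Rspo2-AAV libraries, but 12.8% in Rspo2-AAV 2. In that library Cldn3 made up 75.7%, against 40.1% to 51.4% in the other 5 and 44.4% to 62.0% in the controls. Cldn12 took 10.8% ± 2.01 of the sum in the controls and 6.96% ± 1.56 in the Rspo2-AAV libraries. No test was made of shares, which are bound to each other by their sum.

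**Figure D4:**
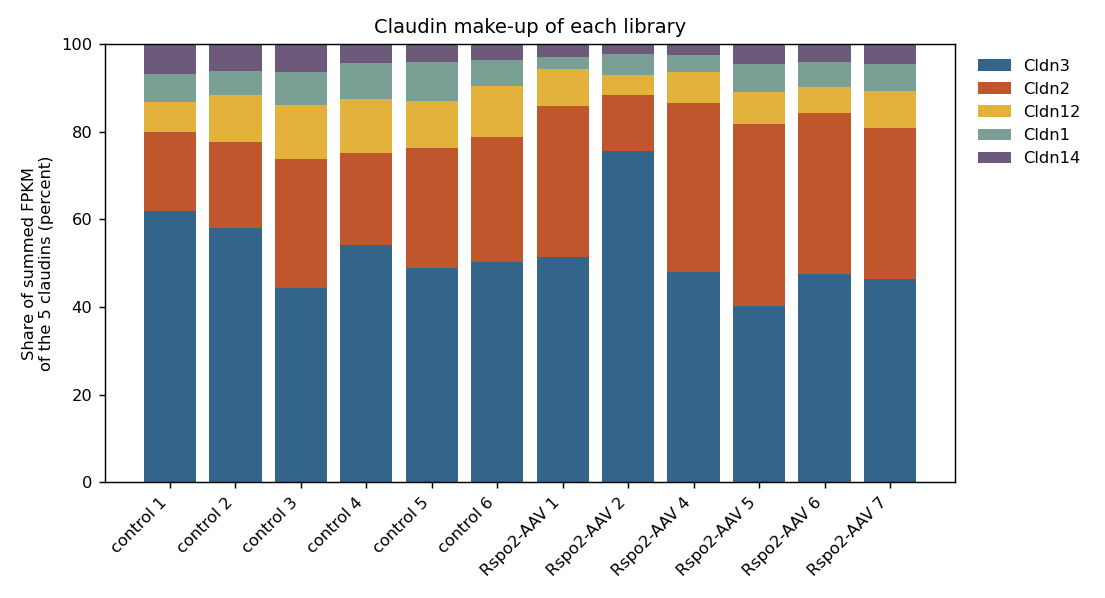
Share (percent) of each of the 5 claudins in their summed FPKM, one bar per library. Cldn2 (orange) takes 34.4% to 41.6% in Rspo2-AAV 1, 4, 5, 6 and 7, more than in any control, and 12.8% in Rspo2-AAV 2, where Cldn3 (blue) takes 75.7%.

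Of 17 other claudins, 16 were in the table, 2 reached the level for testing and 2, Cldn16 and Cldn22, were at 0 in every library. Cldn5, the claudin of endothelial cells, rose from 5.92 ± 1.05 to 9.98 ± 2.07 FPKM (mean ± SD, 6 libraries each, log2 change 0.70 ± 0.16, limma adjusted p = 0.0255). In 5 Rspo2-AAV libraries it was at 9.31 to 11.8 FPKM, above every control (4.79 to 7.51), and in number 4 at 6.18 FPKM. Its call was lost when control 2, 5 or 6 or Rspo2-AAV 5, 6 or 7 was left out (log2 changes of 0.65 to 0.71, adjusted p = 0.0544 to 0.0657). Together with TPM scaling (adjusted p = 0.0848), no filter on low values (0.0534), the replicate block (0.135), numbers 1 to 3 (0.594) and 4 to 7 (0.08) alone and the fit without the Xist libraries (0.0736), the call of Cldn5 was lost in 12 of 25 alternatives. The 10 endothelial markers, Cldn5 among them, summed to 77.5 to 121 FPKM in the controls and 70.6 to 120 FPKM in the Rspo2-AAV libraries, none was at 0 in every library, and Cldn5 was the 1 called, with a median log2 change of 0.00. Cldn7, a claudin of ducts, was at 0.361 ± 0.117 and 0.754 ± 0.262 FPKM (adjusted p = 0.0758), highest in Rspo2-AAV 4. Cldn10 and Cldn13 were chosen after their values were seen. Cldn10 was at 1.24 FPKM in Rspo2-AAV 4 and 0.228 in Rspo2-AAV 5, the libraries with most acinar reads, and at most 0.0502 FPKM in the other 10. Cldn13 was at 0 in every control and in Rspo2-AAV 4 and 5, at 0.966 and 0.610 FPKM in Rspo2-AAV 1 and 2, and at 0.193 and 0.0627 FPKM in numbers 6 and 7.

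Tjp1 and Ocln, for the scaffold ZO-1 and for occludin, were not called in any of the 26 fits. Tjp1 (ENSMUSG00000030516, GRCm38 chromosome 7, 65296165 to 65527781, minus strand) was at 3.06, 5.40 and 6.14 FPKM at the lowest, median and highest of the controls and at 3.74, 4.70 and 6.45 FPKM in the Rspo2-AAV libraries. The groups lay over each other (log2 change -0.01, 95% interval -0.40 to 0.39, limma adjusted p = 0.99). Ocln (ENSMUSG00000021638, chromosome 13, 100496507 to 100552718, minus strand) was at 2.20, 3.82 and 4.02 FPKM in the controls and at 2.09, 2.78 and 3.95 FPKM in the Rspo2-AAV libraries. In the Rspo2-AAV group 5 of 6 values lay below the control median, and the log2 change was -0.24 (95% interval -0.59 to 0.11, adjusted p = 0.427). Among numbers 1 to 3 alone the log2 change of Ocln was -0.69 (95% interval -1.14 to -0.23, limma unadjusted p = 0.0112, adjusted p = 0.497), and among numbers 4 to 7 it was 0.06 (95% interval -0.41 to 0.54, adjusted p = 0.862), a difference that was not tested. After Cdh1, Ocln and Cldn14 had the smallest unadjusted limma p of the 10 junction genes in numbers 1 to 3, where group and Xist partly go together. Of 21 tested genes of the tight junction plaque, cell polarity and other tight junction proteins, 0 were called higher or lower by limma. Their median log2 change was 0.11. The most abundant were Lsr, a protein of junctions where 3 cells meet, at 39.5 ± 11.5 and 36.8 ± 12.3 FPKM, and F11r (JAM-A), an immunoglobulin-like protein, at 21.1 ± 1.42 and 22.1 ± 2.21 FPKM (mean ± SD, 6 libraries each).

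Gjb1 encodes connexin 32, the main gap junction protein of hepatocytes, through which ions and small molecules pass between neighbours (ENSMUSG00000047797, GRCm38 chromosome X, 101376378 to 101385629, plus strand). It was the most abundant of the 10 genes and ranked 136 of 13447 by mean level. It was at 309, 376 and 497 FPKM at the lowest, median and highest of the controls and at 337, 374 and 393 FPKM in the Rspo2-AAV libraries, all of which lay within the control range. The log2 change was -0.05 (95% interval -0.34 to 0.23, limma adjusted p = 0.859), an interval of 0.792 to 1.17 times the control level. The second liver connexin, connexin 26 (Gjb2), named with its values known, stood at 128 ± 17.1 and 132 ± 19.2 FPKM (mean ± SD, 6 libraries each, adjusted p = 0.912). Of 4 other gap junction genes tested, 1 was lower and 0 higher, with a median log2 change of -0.11.

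Desmosomes tie the keratin filaments of neighbouring cells together. A list of desmosome genes with the hepatocyte keratins Krt8 and Krt18 had 2 lower and 0 higher calls in 9 tested genes, with a median log2 change of 0.06. The keratins, named with their values known and at 0.66 and 0.69, had the largest positive changes of the 9, and both called genes were desmosome genes. Perp, a desmosomal membrane protein, fell from 62.7 ± 3.62 to 44.6 ± 7.55 FPKM (mean ± SD, 6 libraries each, log2 change -0.50 ± 0.11, limma adjusted p = 0.0242). The plakophilin Pkp4 fell from 16.2 ± 2.76 to 11.1 ± 1.18 FPKM (-0.52 ± 0.12, adjusted p = 0.0306), and its groups did not overlap. The call of Perp was lost when control 2, 5 or 6 or Rspo2-AAV 4, 5 or 6 was left out (log2 changes of -0.50 to -0.45), and that of Pkp4 without any 1 of control 2, 4, 5 and 6 and Rspo2-AAV 5 and 6 (-0.52 to -0.45). Over all 25 alternatives the call of Perp was lost in 10 and that of Pkp4 in 11, TPM scaling, the replicate block, numbers 1 to 3 alone and the fit without Rspo2-AAV 4 and 5 among them for both genes. Krt8 stood at 154 ± 44.9 and 244 ± 63.5 FPKM (adjusted p = 0.106).

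Genes of the lobule's zones and of other liver cells moved in the same libraries. These lists were chosen with earlier results of these data known, and of all genes tested 2.55% were called higher and 2.65% lower. Among pericentral genes 8 of 10 were called higher and 0 lower (median log2 change 1.28), among them Slc1a2, Axin2, Tbx3 and Glul with log2 changes of 1.49, 1.41, 1.48 and 1.41. Among periportal genes 0 of 10 were called higher and 5 lower (median -1.65), with Hsd17b13, Cyp2f2, Sds and Hal at -4.26, -5.42, -3.30 and -2.55. In that list 2 of 10 changes were positive. Its summed FPKM overlapped between the groups, at 2810 to 5315 in the controls and 1901 to 3904 in the Rspo2-AAV libraries. Of the stellate cell and fibroblast markers, 4 of 10 were lower, Dcn, Ngfr, Lrat and Rgs5, with a median of -0.78, and the 10 summed to 53.6 to 76.0 FPKM in the controls and 24.3 to 43.8 FPKM in the Rspo2-AAV libraries. Of the Kupffer cell markers, 3 of 8 were lower, Marco, Clec4f and Vsig4 (median -0.99, sums of 464 to 975 and 309 to 575 FPKM). The 12 acinar markers had no call, with Ctrb1 at 13284 FPKM and Prss2 at 7100 FPKM in the highest library, Rspo2-AAV 4, and their sum ran from 4.72 to 16.3 FPKM in the controls and from 4.54 to 47794 FPKM in the Rspo2-AAV libraries. None of these 3 marker lists had a gene at 0 in every library. The call of Rgs5 was lost when control 2 or 4 or Rspo2-AAV 4, 5 or 6 was left out (log2 changes of -0.83 to -0.75), that of Vsig4 without any 1 of control 2 and 4 and Rspo2-AAV 4, 5, 6 and 7 (-1 to -0.93), and that of Clec4f without Rspo2-AAV 6 (-1.32). Over all 25 alternatives the calls of Rgs5, Vsig4, Lrat, Clec4f and Ngfr were lost in 10, 11, 4, 3 and 2, and those of Dcn and Marco in 1, numbers 1 to 3 alone. Lrat was lost with TPM scaling (adjusted p = 0.0685), with the replicate block (0.106), without Rspo2-AAV 4 and 5 (0.0659) and among numbers 1 to 3, and Ngfr with the replicate block (0.0727) and among numbers 1 to 3. Of the zone genes named, Sds lost its call in 3 alternatives, Hal and Glul in 2 and the other 5 in 1, numbers 1 to 3 alone. The part of these cell types in the junction values was not tested.

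Genes were ranked by how closely their log2(FPKM + 0.5) followed Cdh1 over the 12 libraries, among protein-coding genes whose mean reached 5 FPKM. The 3 closest were Gpbp1l1 (Pearson r = 0.96), the lipid droplet gene Hsd17b13 (0.95) and Pcmtd2 (0.95). After the group means were removed, r was 0.73, 0.68 and 0.70, so part of the likeness is the difference between the groups. For Cldn2, ranked after its values were seen, the closest were Idi1 (r = 0.97) and Scpep1 (0.96), with 0.94 and 0.91 after removal of the group means. Idi1 encodes an isomerase of the mevalonate pathway. Idi1 was at 1.36 FPKM on average in the controls and 57.9 FPKM in the Rspo2-AAV libraries. Among the 10 junction genes, the closest pair after removal of group means was Cldn14 and Ocln (r = 0.76) and the most opposed was Tjp1 and Gjb1 (r = -0.59). These are descriptions over 12 libraries that share the differences in depth and quality given above.

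**Figure D5:**
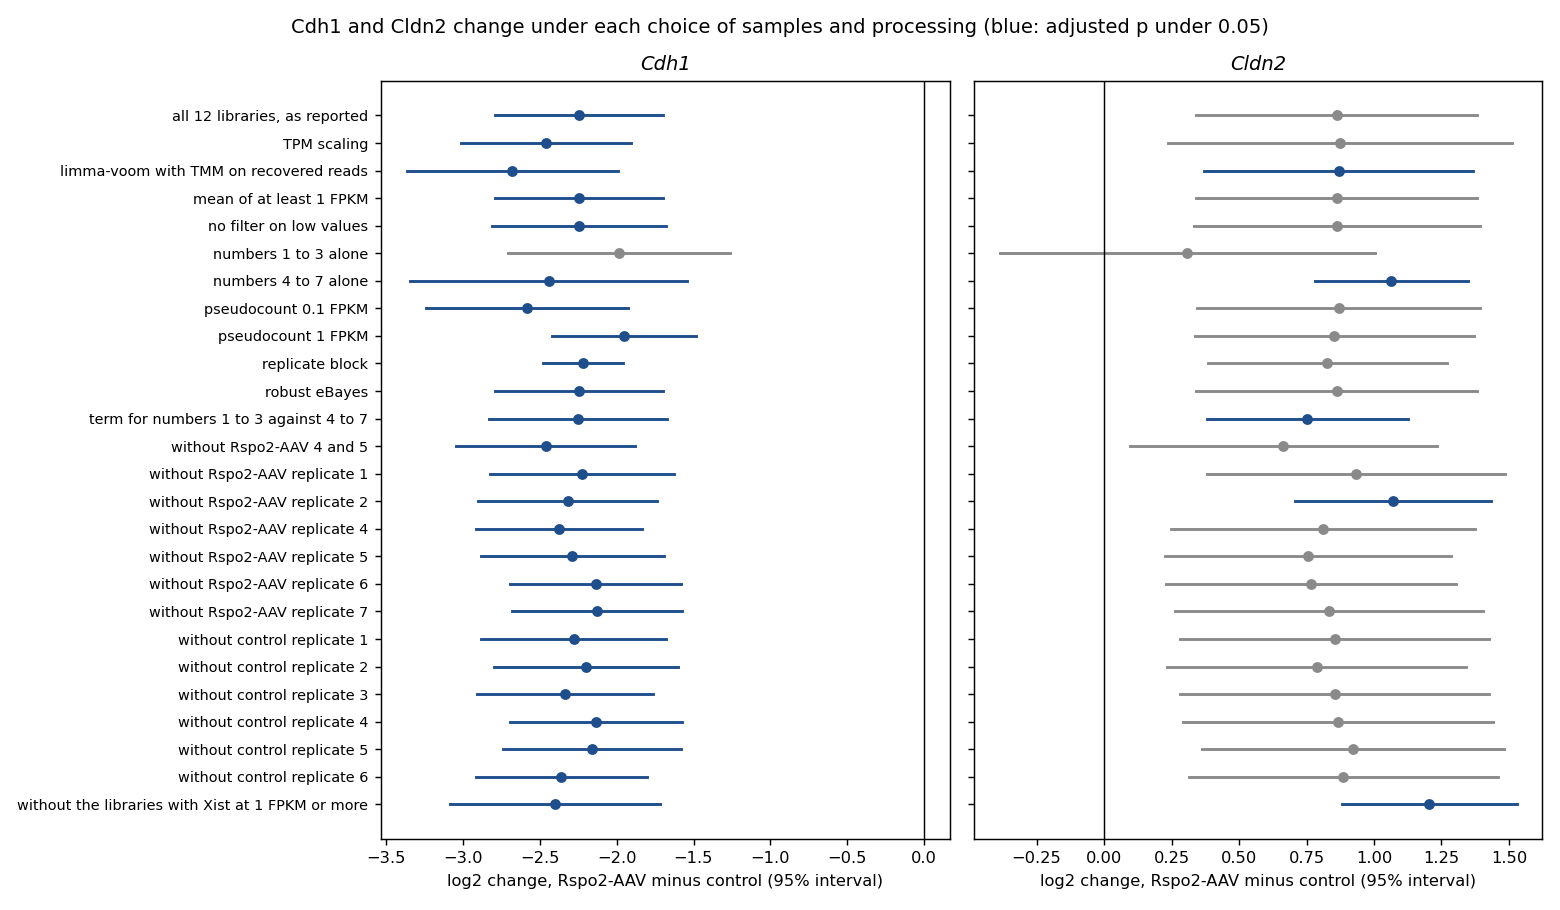
Log2 change of Cdh1 and Cldn2 (Rspo2-AAV minus control, with the 95% interval) over all 12 libraries and under each of 25 other choices of libraries or processing, in blue where the adjusted p is under 0.05. Cdh1 lies between -2.68 and -1.95 and is called in all but numbers 1 to 3 alone, while Cldn2 lies between 0.31 and 1.2 and is called in 5 of the 25.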

How the data were processed

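Poly-A RNA of 12 liver libraries was sequenced. The authors deposited FPKM for 54532 genes, 1 column per sample, with gene symbol, position and length. Per the submitters' processing notes, which give no role or order, the tools were featureCounts 1.5.0-p3, HISAT2 2.0.5 and DESeq2 1.20.0 and the build was GRCm38 (mm10). Whether counting used strand is not given in the sources used here. Genes that overlap a junction gene reached at most 0.532 FPKM.

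Multiplying FPKM by gene length and dividing by each library's step gave whole reads (100% of positive values within 0.01 reads), 14295644 to 22195576 per library. These are PCR reads, so their number bounds counting error only. They were used for depth and limma-voom.

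The test was limma 3.58.1 in R 4.3.3, with a mean-variance trend in eBayes. It compared log2(FPKM + 0.5) of the 13447 genes whose mean reached 0.5 FPKM, 6 control against 6 Rspo2-AAV libraries, two-sided, with Benjamini-Hochberg adjustment over all genes tested and a call under 0.05. On simulated data of 13447 genes, the test recovered 72% of changes of 2-fold and 91% of those of 4-fold. In all, 25 alternatives were tried. Same-numbered libraries of the groups were not taken as pairs, since correlations of their deviations ran from -0.25 to 0.16.

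The junction genes and 15 gene lists (adherens junction, cadherins, claudins, tight junction, gap junction, desmosome and cadherin regulators, cholangiocyte, endothelial, stellate, Kupffer, acinar and hepatocyte markers, pericentral and periportal genes) were chosen with earlier results of these data known. From each list up to 4 called genes by smallest p were named, the 2 most abundant where there was no call, and for each called junction gene the 3 genes most like it. Promoters are RefSeq's for GRCm38.p6, and 250 bases before each start were used. Some genes that this rule names are not reported here.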

Additional observations from a re-analysis of the deposited data

Results flagged for a closer look

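In groups of 6, a library was picked out where its gap to the nearest other library exceeded 0.625 of the group's range (Dixon's 95% limit). Of 36 groups of values for the 10 junction genes and their ratios and shares, 3 were picked out, where chance picks out about 1 in 20, and shares in 1 library are tied to each other. In Rspo2-AAV 2 the share of Cldn2 among the 5 claudins was 12.8%, with 34.4% to 41.6% in the other 5 Rspo2-AAV libraries. In the same library the share of Cldn3 was 75.7%, with 40.1% to 51.4% in the other 5. In control 1 the share of Cldn12 was 7.01%, with 10.6% to 12.4% in the other 5 controls. None of the 10 junction genes had such a library in its own FPKM.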

How the results depend on the processing

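Cdh1 remained lower in each of 25 alternatives and Cldn2 remained positive. Over all 12 libraries 0 of the 10 junction genes were called higher and 1 lower. With limma-voom on recovered reads, with a term for numbers 1 to 3 against 4 to 7, among numbers 4 to 7 alone and without the libraries with Xist, 1 was called higher, Cldn2 each time, and with 1 library left out the count was 0 to 1. Among numbers 1 to 3 alone, limma called 0 lower, both of the junction genes and of all 13447 genes. The most negative changes of junction genes there were those of Cdh1 (-1.98), Cldn14 (-0.90) and Ocln (-0.69). Small changes turned sign: Cldn1 had 0.02 among numbers 4 to 7, 0.13 without the Xist libraries and -0.17 to 0.18 with 1 library left out, Cldn14 had 0.39, 0.10 and -0.25 to 0.01, and Tjp1 had 0.04, 0.20 and -0.12 to 0.06. Tjp1 also had 0.0017 with TPM scaling and 0.0038 with the replicate block. Ocln had 0.06 among numbers 4 to 7, and Gjb1 had -0.11 to 0.02 with 1 library left out. Among list genes, Apoa1 had -0.22 among numbers 4 to 7, -0.27 without the Xist libraries and -0.22 to 0.17 with 1 library left out, Lsr had 0.35, 0.09 and -0.24 to 0.06, and Spp1 had -0.02 among numbers 4 to 7.

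Over all genes tested, 2.55% were called higher and 2.65% lower. The 185 list genes were chosen with earlier results known, and not all were tested. Of them, 10 were called higher (8 of these pericentral) and 16 lower over all 12 libraries. The counts were 17 and 26 among numbers 4 to 7, 23 and 25 without the Xist libraries, 0 and 0 among numbers 1 to 3 (by limma), 5 and 7 without Rspo2-AAV 4 and 5, and 7 to 13 and 9 to 22 with 1 library left out. With TPM scaling 10 were lower. With the replicate block 5 were higher and 6 lower, in a fit to which control 3 and Rspo2-AAV 7, whose numbers have no partner, add nothing. The same number correlated best in both directions for number 4 and for no other number. Over all 13447 genes, the 343 higher and 356 lower calls became 853 and 931 among numbers 4 to 7, 807 and 908 without the Xist libraries, 0 and 0 among numbers 1 to 3, 197 and 183 with TPM scaling, 145 and 153 with the replicate block, 117 and 120 without Rspo2-AAV 4 and 5, and 162 to 421 and 170 to 492 with 1 library left out. With no filter on low values, and so more genes tested, they were 195 and 216. The depth of 44 reads for Cdh1 in its lowest library limits the precision of its change, as do the few reads of genes under 1 FPKM.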
